A study of Drosophila melanogaster with 14 samples.

Results

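The genes described here are 10 receptors through which neurons sense neuropeptides other than PDF. They are *sNPF-R*, *NPFR*, *Dh31-R*, *Dh44-R1*, *Dh44-R2*, *AstA-R1*, *AstC-R1*, *AstC-R2*, *CCHa1-R* and *Lkr*, chosen as a list of names with earlier results of these data known, and they are 10 of the 13792 genes quantified. Their mRNA was measured in 14 RNA-seq libraries of lateral ventral neurons (LNvs) of *Drosophila melanogaster*, sorted on the membrane GFP that Pdf>mGFP places in PDF-positive cells. All flies were female, of the w1118 background and labelled HC25, an abbreviation that the sources used here do not spell out, and their age is not given there. They were kept at 25 °C under light-dark cycles. By the paper's account they were raised on regular food and then aged on sucrose-yeast food of 1.5x strength before dissection. The wild type gave 1 library at each of ZT24, ZT2, ZT4, ZT12, ZT14 and ZT16 (ZT, hours after lights-on, with ZT24 the same clock hour as ZT0). *Atx2* RNAi (line KK108843, driven by *Pdf-GAL4* in the same neurons that were sorted) gave 2 libraries at ZT0 and 2 at ZT12. The *tyf*(e) mutant, which carries its mutation in the whole animal and not in LNvs alone, gave 2 libraries at ZT4 and 2 at ZT16. *Atx2* encodes the RNA-binding protein Ataxin-2, and *tyf* encodes its partner in the translation of the clock protein PERIOD.

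Neuropeptide receptors are mostly G protein-coupled receptors of the cell membrane. A receptor that couples to stimulatory G proteins raises cAMP, and one that couples to inhibitory G proteins lowers cAMP and reduces firing. LNvs release PDF, the main synchronising peptide of the fly clock, and they also receive peptides from the dorsal clock neurons, among them DH31 and CCHamide-1. Which receptors an LNv makes, and at what time of day, sets which of these signals it can read.

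Library totals lay between 5216112 and 23507263 estimated reads with a median of 10641010. *Pdf* alone took 19.3 to 27.9% of all TPM (transcript abundance, reads scaled for transcript length and library total) in the wild type, 26.3 to 31.7% in *Atx2* RNAi and 26.3 to 34.8% in *tyf*. The glial marker *repo* was at 0 to 0.559 TPM in the wild type, 0.125 to 0.703 in *Atx2* RNAi and 1.06 to 3.37 in *tyf*. *Atx2* fell in the *Atx2* RNAi libraries (log2 change of -2.21 at ZT0 and -2.71 at ZT12), and *tyf* fell in the *tyf* libraries (-3.55 at ZT4 and -3.30 at ZT16). *tyf* was also lower in *Atx2* RNAi at ZT0 (29.7 against 115 TPM, log2 change -1.65 ± 0.42, edgeR adjusted p = 0.037) and not called at ZT12 (0.16 ± 0.41). Other genes also separated the genotypes. The summed TPM of 6 peptides of other clock neurons was 1181 to 4357 in the wild type, 127 to 568 in *Atx2* RNAi and 278 to 565 in *tyf*. *Dh31* and *NPF* made up most of the wild-type sum, and not every member followed it. *Trissin* was higher in *tyf* (10.7 to 46.3 TPM, against 0 to 5.14 in the wild type), called at ZT16. *ITP* was called in neither mutant, and *AstC* was not called in *tyf* (log2 changes of 0.76 at ZT4 and -0.18 at ZT16). The 8 glial markers summed to 184 to 477 TPM in the wild type, 28.3 to 48.9 in *Atx2* RNAi and 104 to 291 in *tyf*. *Indy* made up most of the wild-type sum and *Gs2* most of the *tyf* sum. In *tyf* the median log2 change of the 8 was 1.43 at ZT4 and 1.54 at ZT16. There *Indy* was called lower and *Gs2* higher at both hours, and *wrapper* higher at ZT16. In *Atx2* RNAi the median of the 5 tested was -0.14 at ZT0 and -0.51 at ZT12, with *Indy* called lower at both. The 5 general neuron markers summed to 1170.1 to 1535 TPM in the wild type, 673 to 931 in *Atx2* RNAi and 961 to 1078 in *tyf*. Their median log2 change was -0.33 at ZT0 and -0.64 at ZT12 in *Atx2* RNAi, and -0.10 at ZT4 and -0.15 at ZT16 in *tyf*. Only *Syt1* in *Atx2* RNAi at ZT12 (-0.84) and *Syn* in *tyf* at ZT16 (-0.89) were called, both lower. The 8 photoreceptor markers summed to 127 to 232 TPM in the *tyf* libraries of ZT16, against 9.59 to 76.6 in the wild type. *ninaE* (85.1 and 144 TPM) made up most of that *tyf* sum, and only *ninaE* and *Arr2* were called higher there. Not every member followed: *Rh4* read 0.625 and 0 TPM in those libraries, against 0.848 to 3.06 in the wild type. The cholinergic markers were lower in both mutants: *VAChT* was at 12.9 to 27.0 TPM in the wild type and 1.20 to 5.75 TPM in the mutants, with log2 changes of -1.92, -3.19, -1.99 and -2.58 in *Atx2* RNAi at ZT0 and ZT12 and *tyf* at ZT4 and ZT16, each called. *ChAT* was at 26.7 to 52.8 TPM in the wild type and 1.43 to 20.3 TPM in the mutants, with changes of -2.07, -3.80, -1.12 and -1.88, called in all but *tyf* at ZT4. The sums over fat body and hemocyte markers (4.16 to 105 TPM) and over all 9 markers of other transmitter types (58.6 to 420.1 TPM) overlapped between genotypes. Of those 9, which include *VAChT* and *ChAT*, only *ple* was called higher, in *Atx2* RNAi at ZT12 (log2 change 2.51, edgeR adjusted p = 0.041). In the order given for *VAChT*, *Gad1* changed by 4.28, -3.05, 3.78 and -0.02 and *VGlut* by -0.70, 2.97, 2.92 and 7.42, none called. None of these markers is a receptor described here, and their part in the differences between genotypes was not tested. In sorted bulk RNA, fewer cells with a receptor and less receptor mRNA in each cell cannot be told apart.

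Every receptor was detected, and their levels spanned 2 orders of magnitude. *Dh31-R*, a receptor of the calcitonin-like peptide DH31, averaged 73.5 ± 46.4 TPM (SD, n = 14 libraries). *AstC-R2*, 1 of a pair of somatostatin receptor-like receptors for allatostatin C, averaged 69.5 ± 28.4 TPM. *CCHa1-R*, the receptor of CCHamide-1, followed with 36.0 ± 80.0 TPM. These were also the receptors highest among all genes, above 91.3% (*Dh31-R*), 90.9% (*AstC-R2*) and 83.6% (*CCHa1-R*) of them. A middle group held *Dh44-R2* at 13.7 ± 4.11 TPM, *NPFR* at 10.2 ± 8.59 TPM and *sNPF-R* at 8.81 ± 7.51 TPM. A low group held *AstC-R1* (3.84 ± 3.74 TPM), *AstA-R1* (2.94 ± 1.83 TPM), *Dh44-R1* (2.53 ± 1.82 TPM) and *Lkr* (0.597 ± 0.427 TPM), and *Lkr* still stood above 32.7% of genes.

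Most neighbours in this order did not differ beyond their spread. Of the 9 neighbouring pairs, 2 had a mean within-library log2 ratio, on the log2(TPM + 1) scale, larger than its SD over the 14 libraries. *AstC-R2* exceeded *CCHa1-R* by 3.05 (SD 2.89) and was higher in 11 of 14 libraries. *Dh44-R1* exceeded *Lkr* by 1.01 (SD 0.60) and was higher in 13 of 14. *Dh44-R2* was the steadiest receptor, with a coefficient of variation of 30.1%, and *CCHa1-R* the most variable, with 222%. The order itself changed with genotype: *CCHa1-R* had a higher mean than *AstC-R2* in the wild type (74.5 against 70.7 TPM), a mean carried by the 3 early libraries in which it was the higher of the pair, was the lowest of the 10 in *Atx2* RNAi at a mean of 0.507 TPM, and held 13.7 TPM in *tyf*. Together the 10 receptors summed to 144 to 446 TPM in the wild type, 145 to 218 in *Atx2* RNAi and 157 to 185 in *tyf*.

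**Figure D1:**
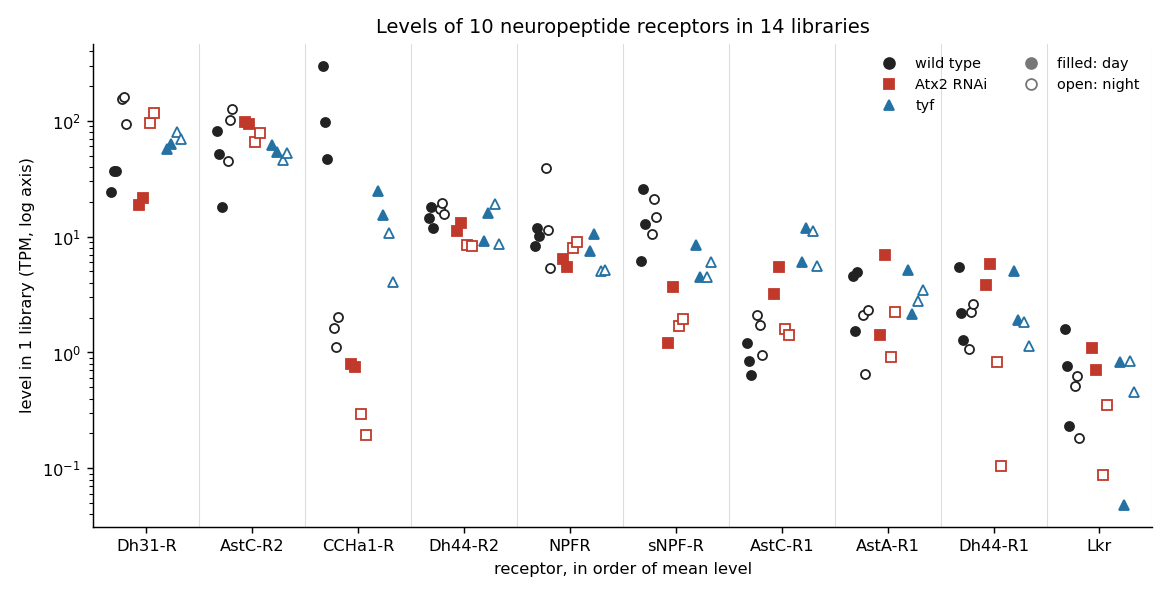
Level of each of the 10 receptors (TPM, log axis) in each of the 14 libraries, with 1 point for each library, symbols for genotype, filled for libraries of ZT24, ZT0, ZT2 and ZT4 and open for those of ZT12, ZT14 and ZT16. Receptors run from the highest mean (*Dh31-R*, 73.5 TPM) to the lowest (*Lkr*, 0.597 TPM), and the points of *CCHa1-R* spread most, from 0.195 to 297 TPM.

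All 10 receptors passed the filter on low counts in every comparison, so none is missing from the counts that follow. Tests used edgeR on the estimated counts summed over the transcripts of each gene, with a threshold of 0.05 on the adjusted p for a call. Values in TPM and tested log2 changes are not on the same scale, because a TPM shares each library with the large share of *Pdf* and the tested values are scaled so that most genes do not move. The libraries carry separate labels, but nothing says whether the members of a pair came from separate cultures, so the p-values measure the spread between libraries, which may be technical.

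Across the day, the wild type moved 2 of the 10 receptors in opposite directions, against 2.05% of all 9695 genes tested. *CCHa1-R* was high in the early day and *Dh31-R* was high in the night. The other 8 receptors had log2 day-over-night changes between -0.77 and 1.21, with adjusted p of 0.50 to 0.96. The median change of the 10 was 0.00, and that of all genes was 0.01. *Atx2* RNAi called 2 of 10 between ZT0 and ZT12, against 4.1% of genes: *Dh31-R* again lower at ZT0, and *Dh44-R1* higher at ZT0. In *tyf*, between ZT4 and ZT16, 0 of 10 were called by edgeR, against 0.989% of genes. At an unadjusted p under 0.05 there was 1 of 10, against 10.1% of genes, and DESeq2 called 0 of 10, against 2.7%. The mutants were sampled at other hours than each other, so these time contrasts are not matched between them.

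**Figure D2:**
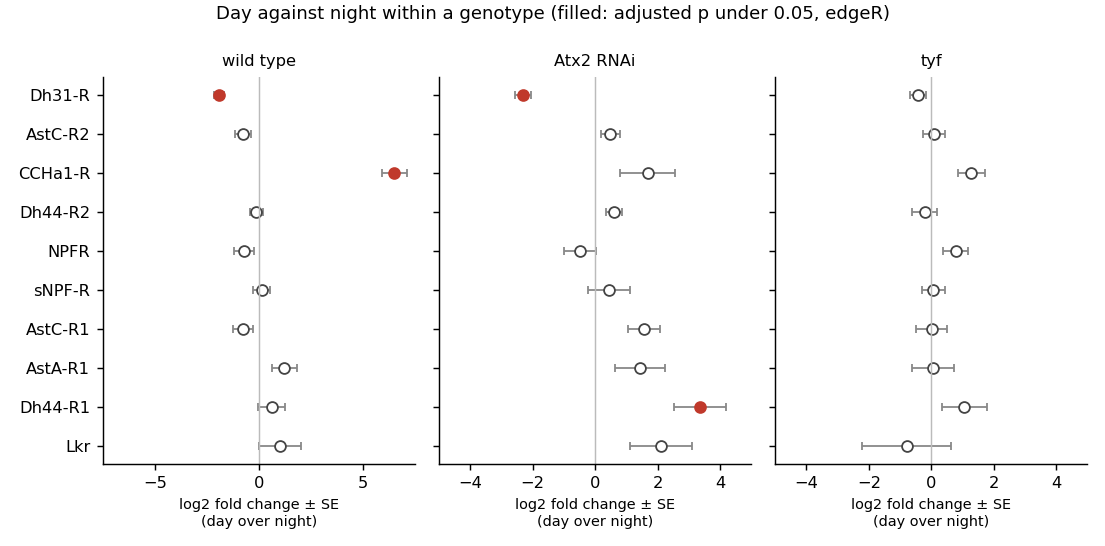
Day-over-night log2 fold change ± SE of each receptor in the wild type (ZT24, ZT2 and ZT4 over ZT12, ZT14 and ZT16), in *Atx2* RNAi (ZT0 over ZT12) and in *tyf* (ZT4 over ZT16), filled where the adjusted p was under 0.05; the horizontal scale is wider in the wild-type panel. The filled points are *Dh31-R* (-1.91) and *CCHa1-R* (6.50) in the wild type and *Dh31-R* (-2.32) and *Dh44-R1* (3.36) in *Atx2* RNAi, and the *tyf* panel has none.

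Against the wild type, 3 receptors moved with genotype and the rest were not called in any of the 4 comparisons. *Atx2* RNAi at ZT0 called 3 of 10, 1 higher and 2 lower, against 7.3% of 8643 genes (3.68% higher and 3.62% lower). At ZT12 it called 1 of 10, lower, against 6.83% of genes (3.6% lower), a share near that of all genes. The *tyf* mutant at ZT4 called 3 of 10, 1 higher and 2 lower, against 4.3% of 9503 genes (2.37% higher and 1.94% lower). At ZT16 it called 2 of 10, both higher, against 6.22% of genes (2.94% higher). *CCHa1-R* and *sNPF-R* carried the lower calls. *AstC-R1* carried the higher calls, joined at ZT16 in *tyf* by *CCHa1-R*. The median log2 change of the 10 receptors was -0.05, -0.89, 0.12 and -0.06 in the 4 comparisons in this order, and that of all genes lay between -0.03 and 0.01. The wild-type libraries sampled at ZT2 and at ZT14 serve as controls for both mutants, so their calls are not independent of each other. Which libraries were prepared or sequenced together is not given in the sources used here, so batch and genotype cannot be told apart in any of these comparisons.

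**Figure D3:**
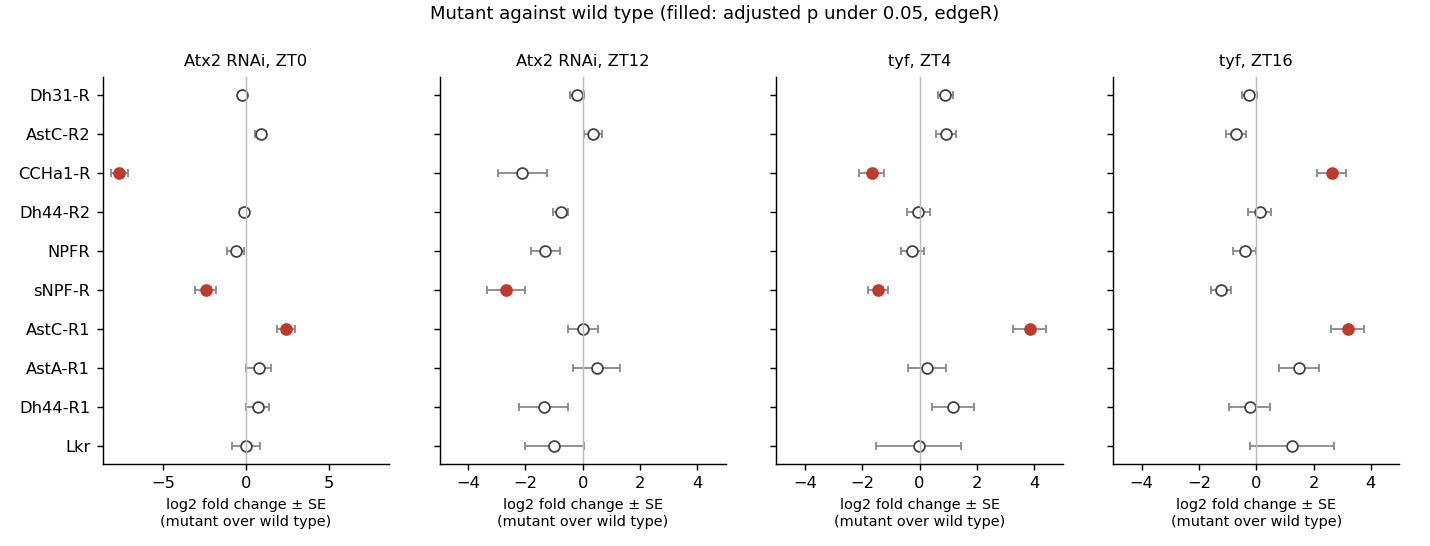
Log2 fold change ± SE of each receptor in the mutant over the wild type in the 4 comparisons, filled where the adjusted p was under 0.05; the horizontal scale is wider in the panel of *Atx2* RNAi at ZT0. *CCHa1-R* lies far to the left in that panel (-7.61), to the left in *tyf* at ZT4 (-1.67) and to the right in *tyf* at ZT16 (2.63), and *AstC-R1* lies to the right in all but *Atx2* RNAi at ZT12.

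*CCHa1-R* (FBgn0050106, 2R:17646848-17665068, minus strand, BDGP6.54) had the widest range of the 10. CCHamide-1 is a gut and brain peptide, made in the brain by dorsal clock neurons among other cells, and its receptor belongs with the bombesin receptors. In the wild type it read 297 TPM at ZT24, 98.3 at ZT2 and 46.6 at ZT4, and 1.64 at ZT12, 1.10 at ZT14 and 2.04 at ZT16. Every early library was thus above every late one by more than an order of magnitude, and within the early libraries the level was lower at each later hour. The day-over-night log2 change was 6.50 ± 0.59 (SE), a 90.7-fold difference (edgeR adjusted p = 7.0e-06). It kept its call without any 1 of the 6 libraries, between 5.59 and 6.91.

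In *Atx2* RNAi *CCHa1-R* was below 1 TPM at both hours, with 0.796 and 0.744 TPM at ZT0 and 0.292 and 0.195 TPM at ZT12. All 4 values lay below the lowest wild-type library of any hour. At ZT0 the mean of 0.770 ± 0.0370 TPM (SD, n = 2) stood against 198 ± 141 TPM (n = 2) in the wild type of ZT24 and ZT2. The log2 change was -7.61 ± 0.53, a 196-fold difference (edgeR adjusted p = 2.5e-05), and it was called under every alternative tried, between -8.17 and -6.70. At ZT12 only 3 and 2 estimated reads fell on the gene in *Atx2* RNAi, against 34 in the 2 wild-type libraries. This difference was 4.51-fold by the normalized counts (95% exact interval of the counting error 1.75 to 14.8), with a log2 change of -2.11 ± 0.85 and an edgeR adjusted p of 0.16. Within *Atx2* RNAi the excess of ZT0 over ZT12 was 3.36-fold by the same measure (1.30 to 11.1), with a log2 change of 1.69 and an edgeR adjusted p of 0.42.

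The *tyf* mutant held *CCHa1-R* between the wild-type extremes. It read 24.6 and 15.4 TPM at ZT4 and 10.8 and 4.06 TPM at ZT16. Both ZT4 libraries were below all early wild-type libraries, and both ZT16 libraries were above all late ones, so the spread between the hours was narrower than in the wild type. At ZT4 the log2 change against the wild type was -1.67 ± 0.43, or 3.19-fold lower (edgeR adjusted p = 0.044). That call was lost without the wild-type library of ZT2 (-1.12, adjusted p = 0.23) and without *tyf* ZT4 replicate 2 (-1.51, adjusted p = 0.095). At ZT16 the change was 2.63 ± 0.50, or 6.21-fold higher (edgeR adjusted p = 0.0077). Here the adjusted p rose to 0.060 without *tyf* ZT16 replicate 1 (1.76) and to 0.059 without the wild-type library of ZT14 (2.30). The photoreceptor markers *ninaE* and *Arr2* were called higher in these ZT16 libraries as well, and the part of photoreceptor markers in this difference was not tested.

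The effect of *tyf* on *CCHa1-R* differed between the hours. The effect at ZT4 minus that at ZT16 was -4.31 ± 0.66 on the log2 scale (edgeR adjusted p = 0.048), making it 1 of 10 receptors called in that contrast, against 0.0526% of genes. Without *tyf* ZT16 replicate 1 the adjusted p was 0.081 (-3.46) and without the wild-type library of ZT14 it was 0.075 (-3.98). Scaling by DESeq2 size factors gave 0.053 and an offset for transcript length 0.052. In *Atx2* RNAi the effect at ZT0 minus that at ZT12 was -5.50 ± 1.44 (edgeR adjusted p = 0.14), and 0 of 10 receptors were called there by edgeR, against 0.74% of genes. At an unadjusted p under 0.05 there were 2 of 10, against 11.2% of genes, and DESeq2 called 1 of 10, against 3.2%. The receptor called by DESeq2 was *CCHa1-R*, which edgeR also called without the wild-type library of ZT24 (-4.56, adjusted p = 0.022) or of ZT2 (-6.04, adjusted p = 0.020).

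**Figure D4:**
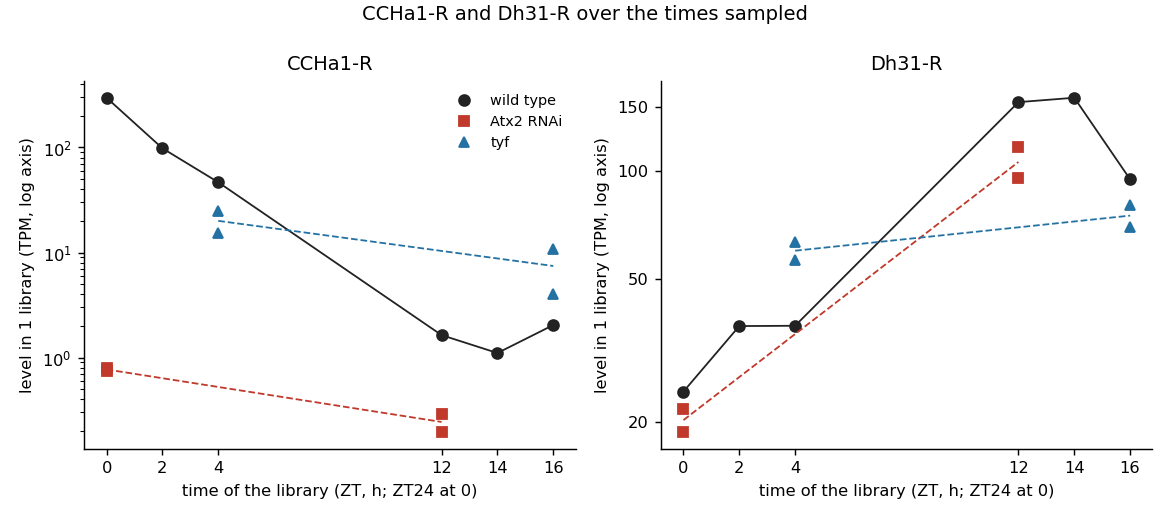
Level of *CCHa1-R* and of *Dh31-R* (TPM, log axes) against the hour of the library (ZT24 drawn at 0), with 1 point for each library and lines through the wild-type points and through the means of each mutant. Wild-type *CCHa1-R* runs from 297 TPM at ZT24 to 1.10 TPM at ZT14 while *Atx2* RNAi stays below 1 TPM at both hours, and *Dh31-R* is higher at the later hours in the wild type and in *Atx2* RNAi, with *tyf* at 56.5 to 80.5 TPM throughout.

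*Dh31-R* (FBgn0052843, 2R:13267798-13295927, minus strand) ran opposite to *CCHa1-R* in the wild type. It belongs to the same family of hormone receptors as *Pdfr*, which also responds to DH31. Wild-type libraries read 24.3 TPM at ZT24, 37.0 at ZT2 and 37.1 at ZT4, and 155 at ZT12, 159.6 at ZT14 and 94.6 at ZT16. All late libraries were above all early ones. The log2 day-over-night change was -1.91 ± 0.24, or 3.76-fold (edgeR adjusted p = 2.0e-04), and it was called under every alternative tried. In *Atx2* RNAi the gene read 18.8 and 21.8 TPM at ZT0 and 95.4 and 116 TPM at ZT12. The hours did not overlap there either, with a log2 change of -2.32 ± 0.25, or 4.99-fold (edgeR adjusted p = 8.5e-04), called without any 1 library, between -2.33 and -2.27.

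In *tyf*, *Dh31-R* read 56.5 and 63.3 TPM at ZT4 and 80.5 and 69.6 TPM at ZT16. The hours did not overlap, but the log2 change was -0.43 ± 0.26 (edgeR adjusted p = 0.65). Against the wild type the ZT4 libraries of *tyf* were 0.90 ± 0.26 higher on the log2 scale (edgeR adjusted p = 0.068, and 0.015 by DESeq2). That p fell to 0.038 without *tyf* ZT4 replicate 1 (1.11). The effect of *tyf* at ZT4 minus that at ZT16 was 1.15 ± 0.37 (edgeR adjusted p = 0.50), so a difference between the hours was not established. *Atx2* RNAi left the gene within -0.27 ± 0.24 of the wild type at ZT0 and -0.20 ± 0.24 at ZT12, neither called, although its TPM was below both paired wild-type libraries at each hour. The mRNA of the ligand, *Dh31*, was far lower in both mutants: 632 to 2875 TPM in the wild type, 10.3 and 9.19 at ZT0 and 298 and 239 at ZT12 in *Atx2* RNAi, and 47.8 to 182 in *tyf*.

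*sNPF-R* (FBgn0036934, 3L:20058511-20089007, minus strand) was lower in both mutants. It is the receptor of short neuropeptide F, a peptide that LNvs themselves release and that acts mainly through inhibitory G proteins. The wild type read 6.20 TPM at ZT24, 25.9 at ZT2, 12.9 at ZT4, 10.5 at ZT12, 21.2 at ZT14 and 14.7 at ZT16, with no separation of day and night. *Atx2* RNAi read 1.21 and 3.65 TPM at ZT0 and 1.69 and 1.93 TPM at ZT12. None of these 4 values reached the lowest wild-type library. At ZT0 the log2 change was -2.44 ± 0.63, or 5.41-fold lower (edgeR adjusted p = 0.040), and at ZT12 it was -2.69 ± 0.67, or 6.43-fold lower (edgeR adjusted p = 0.037).

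Both *Atx2* RNAi calls of *sNPF-R* rested on few libraries. At ZT0 the change was -0.98 without the wild-type library of ZT2 (adjusted p = 0.36), -1.91 without *Atx2* RNAi replicate 1 (0.24), -3.30 without replicate 2 (0.056) and -2.43 with only the 4 libraries of the comparison (0.067). At ZT12 it was -2.21 without the wild-type library of ZT14 (adjusted p = 0.16), -2.72 without *Atx2* RNAi replicate 1 (0.19) and -2.69 without replicate 2 (0.19). The direction held in each. In *tyf* the gene read 8.49 and 4.45 TPM at ZT4 and 4.48 and 6.0 TPM at ZT16, all below the paired wild-type libraries. The change at ZT4 was -1.45 ± 0.36, or 2.74-fold lower (edgeR adjusted p = 0.035), and at ZT16 it was -1.22 ± 0.36 (edgeR adjusted p = 0.059). The ZT4 call was lost without the wild-type library of ZT2 (-0.96, adjusted p = 0.20), without *tyf* ZT4 replicate 2 (-1.16, 0.13), with only the 4 libraries of the comparison (-1.45, 0.087) and with the 3 early wild-type libraries as controls (-1.07, 0.24). The effects of the 2 mutants on *sNPF-R* differed by -1.03 ± 0.33, *Atx2* RNAi the lower, with an edgeR adjusted p of 0.072.

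Allatostatin C has 2 receptors, and only *AstC-R1* was called in a comparison with the wild type. *AstC-R1* (FBgn0036790, 3L:18560258-18576326, plus strand) and *AstC-R2* (FBgn0036789, 3L:18485137-18502557, minus strand) lie close together on 1 chromosome arm. *AstC-R1* was scarce in the wild type, with 1.21 TPM at ZT24, 0.847 at ZT2, 0.643 at ZT4, 2.13 at ZT12, 1.73 at ZT14 and 0.960 at ZT16. In *tyf* it read 5.99 and 11.8 TPM at ZT4 and 11.2 and 5.60 TPM at ZT16. Every *tyf* library was above every wild-type library. The log2 change was 3.84 ± 0.59 at ZT4, or 14.4-fold (edgeR adjusted p = 0.0022), and 3.19 ± 0.57 at ZT16, or 9.14-fold (edgeR adjusted p = 0.0055). Both were called under every alternative tried, at 3.06 to 4.34 for ZT4 and 2.60 to 3.59 for ZT16.

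In *Atx2* RNAi *AstC-R1* was called at ZT0. It read 3.17 and 5.43 TPM at ZT0, above all wild-type libraries, and 1.59 and 1.41 TPM at ZT12, within their range. The log2 change at ZT0 was 2.40 ± 0.54, or 5.29-fold (edgeR adjusted p = 0.022), and at ZT12 it was 0.01 ± 0.53 (edgeR adjusted p = 0.99). The ZT0 call was lost without either *Atx2* RNAi library (2.67, adjusted p = 0.070, without replicate 1 and 2.07, 0.19, without replicate 2) and without the wild-type library of ZT2 (2.22, 0.11). The difference of the effects between the hours was 2.39 ± 0.75 (edgeR adjusted p = 0.23). Counts behind the gene were 11 to 33 in the wild type, 16 to 129 in *Atx2* RNAi and 107 to 277 in *tyf*. The glial marker *Gs2* was also higher in *tyf* (72.5 to 213 TPM, against 7.11 to 25.5 in the wild type) but not in *Atx2* RNAi (3.01 to 15.9), and its part in the *AstC-R1* difference was not tested.

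**Figure D5:**
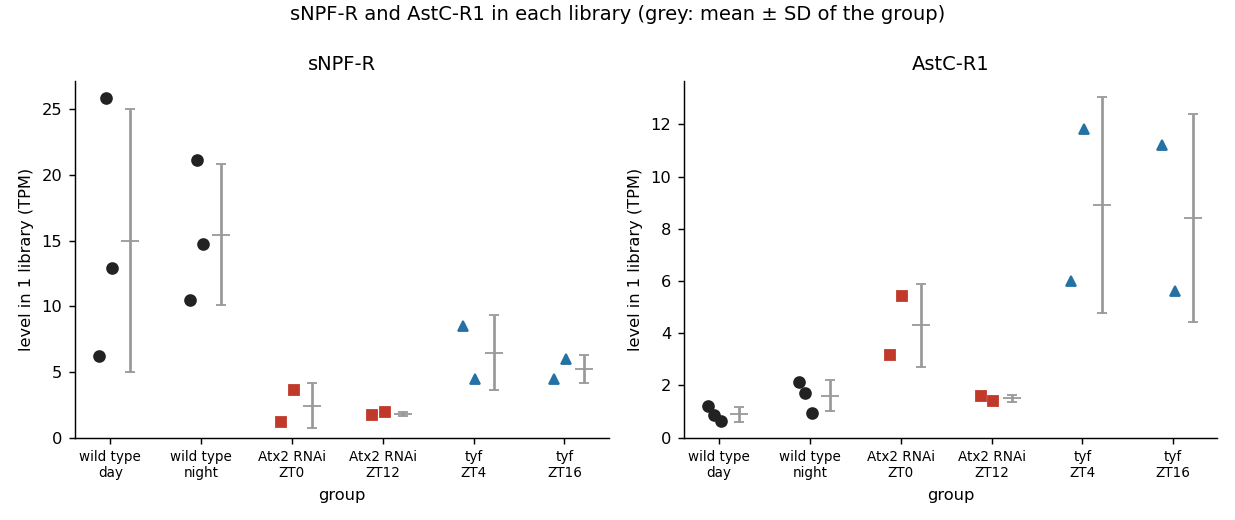
Level of *sNPF-R* and *AstC-R1* (TPM) in each library by group, with the mean ± SD of the group in grey (n = 3 for the wild-type groups and 2 for the mutant groups). *sNPF-R* is below 9 TPM in all mutant libraries and at 6.20 to 25.9 TPM in the wild type, a range that *tyf* overlaps. *AstC-R1* is below 2.2 TPM in all wild-type libraries and 5.60 to 11.8 TPM in *tyf*.

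*AstC-R2* was abundant in all genotypes. It ranged from 18.1 TPM at ZT4 to 125 TPM at ZT16 in the wild type, with 81.8 at ZT24, 52.2 at ZT2, 44.9 at ZT12 and 102 at ZT14. *Atx2* RNAi read 97.5 and 93.5 TPM at ZT0 and 65.5 and 78.0 TPM at ZT12, and *tyf* read 61.6 and 54.1 TPM at ZT4 and 45.8 and 53.1 TPM at ZT16. No comparison called it. Its log2 change was 0.88 ± 0.32 in *Atx2* RNAi at ZT0 (edgeR adjusted p = 0.12) and 0.93 ± 0.36 in *tyf* at ZT4 (edgeR adjusted p = 0.17). The latter depended on the wild-type library of ZT2, without which it was 1.79 (adjusted p = 0.0074). The effect of *tyf* at ZT4 minus that at ZT16 was 1.64 ± 0.50 (edgeR adjusted p = 0.48). *AstA-R1* (FBgn0266429, X:3574536-3666724, plus strand), a galanin receptor-like receptor of allatostatin A, ranged from 0.650 to 4.96 TPM in the wild type, 0.910 to 6.89 in *Atx2* RNAi and 2.16 to 5.20 in *tyf*. These ranges overlapped, and the one value past an unadjusted p was in *tyf* at ZT16 (log2 change 1.49 ± 0.69, edgeR adjusted p = 0.23).

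*NPFR* (FBgn0037408, 3R:6187315-6195403, plus strand), the receptor of neuropeptide F, showed 1 high library. The wild type read 8.35 TPM at ZT24, 11.8 at ZT2, 10.1 at ZT4, 38.9 at ZT12, 11.3 at ZT14 and 5.41 at ZT16, so ZT12 was more than 3 times any other. *Atx2* RNAi read 6.43 and 5.46 TPM at ZT0 and 7.94 and 9.02 TPM at ZT12, and *tyf* read 7.46 and 10.5 TPM at ZT4 and 5.06 and 5.12 TPM at ZT16. At ZT12 the log2 change in *Atx2* RNAi was -1.31 ± 0.50 (edgeR adjusted p = 0.14). That value turned on the wild-type controls: it was -0.09 without the library of ZT12 (adjusted p = 0.93) and -1.99 without that of ZT14 (adjusted p = 0.016).

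The receptors of DH44, a peptide related to corticotropin-releasing factor, gave 1 call, between the hours of *Atx2* RNAi. *Dh44-R1* (FBgn0033932, 2R:14378097-14385359, plus strand) read 3.86 and 5.81 TPM at ZT0 in *Atx2* RNAi and 0.833 and 0.104 TPM at ZT12. The hours were far apart, with 68 and 117 estimated reads at ZT0 and 8 and 1 at ZT12. The log2 change was 3.36 ± 0.83, or 10.3-fold (edgeR adjusted p = 0.046), and the ratio of normalized counts was 11.1 (95% exact interval of the counting error 5.74 to 24.8). The call was lost without ZT0 replicate 1 (3.56, adjusted p = 0.11), ZT0 replicate 2 (3.14, 0.22) or ZT12 replicate 2 (2.48, 0.30), and without ZT12 replicate 1 the change was 5.61. In the wild type the gene read 1.28 to 5.47 TPM early and 1.06 to 2.62 TPM late, and in *tyf* 5.09 and 1.90 TPM at ZT4 and 1.82 and 1.13 TPM at ZT16. Neither genotype called the time difference, and no comparison with the wild type called the gene.

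*Dh44-R2* (FBgn0033744, 2R:12474424-12487986, plus strand) stayed between 8.31 and 19.6 TPM in all 14 libraries. The wild type read 11.99 to 19.6 TPM, *Atx2* RNAi 8.31 to 13.2 and *tyf* 8.72 to 19.1. At ZT12 *Atx2* RNAi (8.45 and 8.31 TPM) was below both wild-type libraries (17.4 and 19.6 TPM), with a log2 change of -0.77 ± 0.25 (edgeR adjusted p = 0.095). Between its own hours it differed by 0.60 ± 0.25 (edgeR adjusted p = 0.29). An exon of *Dh44-R2* overlaps an exon of *fdl* on the opposite strand, and since the sources used here do not say whether quantification used strand, reads of the overlap may belong to either gene. *Lkr* (FBgn0035610, 3L:5512421-5529341, minus strand), the receptor of the diuretic peptide leucokinin, was covered by 1 to 23 estimated reads in a library and 0.0484 to 1.60 TPM. Differences in *Lkr* were not detectable at this depth, as its log2 changes had standard errors of 0.86 to 1.48 against the wild type.

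Pooling all mutant libraries against the 6 of the wild type called 3 of 10 receptors, those named above, against 19.6% of genes, so a count of this size is not particular to receptors. *sNPF-R* was lower by 3.42-fold (log2 change -1.78 ± 0.29, edgeR adjusted p = 5.9e-04). *AstC-R1* was higher by 5.18-fold (2.37 ± 0.31, edgeR adjusted p = 8.7e-05). *CCHa1-R* was lower by 5.19-fold (-2.38 ± 0.40, edgeR adjusted p = 7.4e-04), a mean over mutants and hours that moved it in different directions. *NPFR* had a change of -0.78 ± 0.32 (edgeR adjusted p = 0.10), which passed without the wild-type library of ZT16 (-0.997, adjusted p = 0.018). The median change of the 10 was 0.03, and that of all genes was -0.03.

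Setting each mutant against its own wild-type libraries and comparing the 2 effects called 2 of 10 receptors, against 8.29% of 10753 genes. *CCHa1-R* was lower in *Atx2* RNAi than in *tyf* by 5.34 ± 0.41 on the log2 scale, or 40.5-fold (edgeR adjusted p = 1.9e-06). *AstC-R1* was lower in *Atx2* RNAi by 2.28 ± 0.47, or 4.85-fold (edgeR adjusted p = 0.0084). Both kept their call without any 1 mutant library. The hours sampled differ between the mutants, so genotype and hour cannot be told apart in this contrast.

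The peptides that these receptors bind were called in the same 4 comparisons. Of 9 ligand genes, 6 or 7 were tested in each comparison with the wild type, and all calls were lower. *Atx2* RNAi at ZT0 called 2 of 6, against 3.62% of all genes called lower, *Dh31* (log2 change -7.06) and *NPF* (-2.67). At ZT12 it called 3 of 6, against 3.6% of all genes, *Dh31* (-2.21), *NPF* (-2.08) and *AstC* (-3.39). The *tyf* mutant called 2 of 7 at ZT4, against 1.94% of all genes, *Dh31* (-3.67) and *NPF* (-2.19), and 1 of 7 at ZT16, against 3.28%, *Dh31* (-3.62). The summed ligand TPM was 1672 to 4438 in the wild type, 413 to 721 in *Atx2* RNAi and 601 to 1074 in *tyf*, with no overlap of the wild type with either mutant. *Dh31* and *NPF* made up most of the wild-type sum. *sNPF*, the ligand of *sNPF-R*, was not called, with changes of -0.56 and -0.64 in *Atx2* RNAi at ZT0 and ZT12. In *tyf* its changes were -1.21 at ZT4 and 1.46 at ZT16. *Dh31*, *NPF* and *AstC* are known as peptides of other clock neurons. *CCHa1*, the ligand of *CCHa1-R*, was at 0 to 3.37 TPM in all libraries, and *AstA* at 0 to 2.77.

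Other neuropeptide receptors moved in both directions. Of the 29 listed, 26 were tested in *Atx2* RNAi, where 6 were higher and 4 lower at ZT0, against 3.68% and 3.62% of all genes, and 3 higher and 2 lower at ZT12, against 3.23% and 3.6%. In *tyf* 28 were tested, with 1 higher and 5 lower at ZT4, against 2.37% and 1.94% of all genes, and 0 higher and 4 lower at ZT16, against 2.94% and 3.28%. *FMRFaR*, the receptor of FMRFamide, and *PK2-R1*, a pyrokinin receptor, were lower in all 4, at log2 changes of -3.63, -3.45, -1.93 and -3.32 for *FMRFaR* and -5.35, -4.62, -3.24 and -4.50 for *PK2-R1*. *Pdfr*, the PDF receptor, was higher in 3 of the 4, by 1.68 in *Atx2* RNAi at ZT0 and 1.73 in *tyf* at ZT4 among them. In the wild type it was lower in the day than in the night (-2.65), and *ETHR*, the receptor of ecdysis-triggering hormone, was higher in the day (3.76), the only calls among 27, against 2.05% of all genes. Of 15 genes of receptor coupling (G protein subunits, an arrestin, receptor kinases and a regulator of G protein signalling), *Ggamma30A* (-3.51) and *Ggamma1* (-1.17) were lower in *Atx2* RNAi at ZT12 (2 of 13, against 3.6% of all genes) and *Ggamma30A* (-1.47) in *tyf* at ZT16 (1 of 15, against 3.28%). In *Atx2* RNAi at ZT0 edgeR called 0 of 13, against 7.3% of all genes, with 5 at an unadjusted p under 0.05 (23.1% of all genes) and 1 by DESeq2 (10.6%). In *tyf* at ZT4 edgeR called 0 of 15, against 4.3%, with 4 at an unadjusted p under 0.05 (18.9%) and 1 by DESeq2 (8.94%).

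Across the 14 libraries each receptor of at least 5 TPM was compared with all 9695 genes by Pearson's r of normalized log2 CPM. These correlations are descriptions over libraries that share genotype, hour and depth. *sNPF-R* was most like *CG33337* (r = 0.92, Spearman's rho = 0.93), *svp*, a nuclear receptor gene (r = 0.91), and *vnd*, a homeobox gene (r = 0.90). *Dh31-R* was most like *ItgaPS4*, an integrin alpha subunit gene (r = 0.93, rho = 0.86), and *CCHa1-R* most like *CG31029* (r = 0.88, rho = 0.89). For *AstC-R2* the nearest was *CG13300* (r = 0.91, and 0.77 without the 2 libraries farthest from the median) and for *Dh44-R2* it was *Tmtc4* (r = 0.83). *NPFR* was most like *CG5346* (r = 0.85), a value that was 0.61 without the 2 farthest libraries.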

How the data were processed

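LNv RNA was amplified with T7 polymerase, sequenced as single-end reads of 50 bases and quantified with kallisto against FlyBase transcripts by the authors, who deposited an estimated count and a TPM for each of 30438 transcripts in each library. The unit of the deposited estimated counts is reads, unscaled, and the deposited TPM are scaled to transcript length and library total. Here 30191 transcripts were matched to a gene by identifier (BDGP6.54 annotation) and summed to 13792 genes, and the 247 unmatched ones held 0.234% of the counts. Expected counts were rounded, scaled by TMM and tested with the quasi-likelihood test of edgeR 4.0.16 in R 4.3.3 (filterByExpr, Benjamini-Hochberg adjustment over all genes tested). DESeq2 1.42.0 was an alternative. Strand use is not given in the sources used here.

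Wild-type controls were ZT24 and ZT2, and ZT12 and ZT14, for *Atx2* RNAi, and ZT2 and ZT4, and ZT14 and ZT16, for *tyf*, as the study paired them. Each such fit held 8 libraries in 4 groups. Time in the wild type and pooled effects used all 14 libraries. The difference between the mutant effects was fitted on all 14, with each wild-type library as its own group. That contrast weighted only ZT24 and ZT12 as controls for *Atx2* RNAi and ZT4 and ZT16 for *tyf*. The wild type has 1 library per hour, so in the other fits neighbouring hours stand in for replicates and change over hours adds to their spread. Standard errors were the log2 change divided by the root of F. All 10 receptors are named, with p-values where an unadjusted p was under 0.05; from each accompanying gene list, called members were counted and up to 4 named by smallest p. The receptors, lists and tests were chosen with earlier results of these data known. Counting intervals (95%, Clopper-Pearson) cover counting error only. The code was tested on simulated counts. Alternatives were other size factors, no filter, a length offset, a replicate block, other sets of libraries and leaving out each library. Rh6 was not analysed here, and promoter, transcript and protein sequences were not used here.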

Additional observations from a re-analysis of the deposited data

Results flagged for a closer look

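For 3 results, the effect of a mutant on a receptor differed from another effect under the same contrast by a test of the difference itself. The effect of *tyf* on *CCHa1-R* was lower at ZT4 than at ZT16, with a difference of -4.31 on the log2 scale. Its call was lost with DESeq2 size factors in edgeR and with the length offset. The effect of *Atx2* RNAi on *CCHa1-R* was lower than that of *tyf*, with a difference of -5.34. For *AstC-R1* the effect of *Atx2* RNAi was likewise lower than that of *tyf*, with a difference of -2.28. Genotype and hour cannot be told apart in either difference between the mutants.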

How the results depend on the processing

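The receptor changes past an unadjusted p of 0.05 were recomputed under each alternative that gave a value, and none of these changed direction; no setting moved the median of all genes by more than 0.0749 on the log2 scale. Counts of genes called did move. Without the filter on low counts, genes called were 1126 for *Atx2* RNAi at ZT0, 1142 at ZT12, 816 for *tyf* at ZT4, 1006 at ZT16, 721 for the *Atx2* RNAi time contrast, 349 for that of *tyf*, 397 and 152 for the differences of effect between hours (*Atx2* RNAi, *tyf*) and 1345 for the *Atx2* RNAi effect minus the *tyf* effect; receptors called became 3, 5, 1, 1 and 2 for *Atx2* RNAi at ZT12, *tyf* at ZT4, *tyf* time and the 2 differences between hours. With DESeq2 the genes called were 895 (*Atx2* RNAi, ZT12), 784 (*tyf*, ZT4), 1027 (*tyf*, ZT16), 327 (wild-type time), 545 and 242 (time in *Atx2* RNAi and *tyf*) and 239 and 55 (differences between hours), and receptors called became 1 for the *Atx2* RNAi difference between hours and 4 for *Atx2* RNAi minus *tyf*. DESeq2 size factors in edgeR, and likewise the length offset, left 1 gene and 0 receptors for the *tyf* difference between hours. With only the 4 libraries of a comparison the genes called were 222 (*tyf*, ZT4) and 946 (*tyf*, ZT16), and with only the wild type 115 for its time contrast.

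Leaving out each library in turn gave the following ranges. Genes and receptors called were 178 to 796 and 1 to 3 for *Atx2* RNAi at ZT0, 132 to 427 and 0 to 1 at ZT12, 139 to 438 and 1 to 4 for *tyf* at ZT4, and 184 to 355 and 1 to 2 at ZT16. They were 103 to 227 and 2 to 2 for wild-type time, 80 to 168 and 1 to 2 for *Atx2* RNAi time, and 21 to 198 and 0 to 0 for *tyf* time. For the differences between hours they were 9 to 190 and 0 to 1 (*Atx2* RNAi) and 1 to 102 and 0 to 2 (*tyf*). The pooled contrast gave 1448 to 2048 and 3 to 4, and *Atx2* RNAi minus *tyf* gave 396 to 1223 and 2 to 3, leaving out mutant libraries only. A lone library left in a group was assumed to vary like the others. Outside these, 11 values of single receptors lost a call and 19 gained one, and on leaving out a library 20 lost and 10 gained; the cause was not tested.

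Replicate numbers are carried by the mutant libraries alone. Same-numbered libraries did not deviate together (r = 0.0102 in *Atx2* RNAi and 0.0168 in *tyf*, over 9695 genes). These values cannot show whether same-numbered libraries shared a culture or a preparation. The replicate block left 295 genes and 1 receptor for *Atx2* RNAi at ZT0, 264 and 0 at ZT12, 1 receptor for *tyf* at ZT4, 335 genes for *tyf* at ZT16, 228 genes and 1 receptor for *Atx2* RNAi time and 15 genes for its difference between hours. Depth limits *Lkr* throughout, and *Dh44-R1* and *CCHa1-R* in *Atx2* RNAi at ZT12.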

Other observations

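Of the 3 transcripts of *Dh31-R*, FBtr0087755 and FBtr0330736 had identical values, each with 34.8% of the gene's estimated counts and 6.91 to 53.5 TPM, and FBtr0330735 held 30.5% with 0.0363 to 64.5 TPM over the 14 libraries. For *AstC-R2*, 2 transcripts held 50% of the estimated counts each with identical values, so the deposited estimates do not separate that pair. *NPFR* estimated counts were split between FBtr0078590 (56.8%) and FBtr0308316 (38.1%). For *sNPF-R*, FBtr0332667 held 94.3% of them, and for *Dh44-R2*, FBtr0113075 held 95.8%.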
